A study of Mus musculus with 6 samples.

Results

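The genes described here are the core of the Reelin signalling pathway together with markers of Cajal-Retzius cells. They are 9 listed genes (Reln, Dab1, Vldlr, Lrp8, Calb2, Trp73, Lhx1, Lhx5 and Ndnf) of the 34289 genes to which the deposited transcripts were summed. They were chosen by name, with earlier results of these data known. RNA was sequenced from postmitotic neurons of mouse cortex at embryonic day 14.5. The 3 control libraries came from cortices of genotype Rp58+/+, and the 3 mutant libraries from cortices of genotype Rp58-/-, which lack both functional copies of Rp58. Rp58 is an earlier name of Zbtb18, which encodes a zinc finger repressor of transcription. No strain, sex, treatment or number of embryos per library is given, the Rp58-/- allele is not described beyond its name, and the sources used here do not say how neurons were separated from other cells. Nothing states that each library had its own embryo, so p-values describe variation among these 6 libraries and may be partly technical. The design asks how loss of Rp58 changes the transcripts of cortical neurons.

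Reelin is a large secreted glycoprotein that guides the positions of newborn neurons in the cortex. At the receiving neuron it binds the lipoprotein receptors encoded by Vldlr and Lrp8 (also known as Apoer2), and the adaptor Dab1, bound to the tails of both receptors, is then phosphorylated by Src family kinases and later degraded. In the embryonic cortex the main source of Reelin is the Cajal-Retzius cell, an early-born neuron of the marginal zone that migrates in from the edges of the cortical sheet. Cajal-Retzius cells are recognised by Reln with Calb2 (calretinin), the p53 relative Trp73, the LIM homeodomain factors Lhx1 and Lhx5, and the secreted factor Ndnf, and none of these genes is private to that cell type.

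Some of these genes were listed with several transcripts, and 2 pairs of transcripts are shown because the counts of Reln and Trp73 were divided between them. Reln-207 and Reln-201 differ in 6 coding bases, a microexon known from neurons, and their coding regions are 10383 and 10377 bases long. The capitals mark the 6 bases in Reln-207, and the Reln-201 line shows the same stretch without them.
Reln-207: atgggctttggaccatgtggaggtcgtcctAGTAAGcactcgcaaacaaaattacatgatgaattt
Reln-201: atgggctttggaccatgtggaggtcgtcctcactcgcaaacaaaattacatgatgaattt
Trp73-205 begins at the internal promoter of the gene and codes for the form that lacks the transactivation domain, while Trp73-204 begins at the first promoter and codes for the form that holds it. Their coding regions share the last 1732 bases. The capitals mark the unshared coding bases, all 38 of them for Trp73-205 and the last of 182 for Trp73-204.
Trp73-205: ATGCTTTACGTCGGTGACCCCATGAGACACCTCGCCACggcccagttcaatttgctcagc
Trp73-204: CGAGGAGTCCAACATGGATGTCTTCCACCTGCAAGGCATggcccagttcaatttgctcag

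The bases just before an internal start of Dab1 and of Lrp8 are shown as well, since these were the members of the receiving side that were lower in every mutant library. RefSeq (GRCm38.p6) gave such windows for 6 of the 9 genes, 11 windows in all. The Dab1 stretch lies on the plus strand at chr4:104367470-104367537, directly before the internal of its 2 RefSeq starts and outside annotated exons of that strand. Dab1-203, the main Dab1 transcript in these libraries, starts at 66.5% of the gene's span. The Lrp8 stretch lies on the plus strand at chr4:107830703-107830952, before an internal RefSeq start of that gene. Capitals mark CANNTG, the general E-box.
Dab1: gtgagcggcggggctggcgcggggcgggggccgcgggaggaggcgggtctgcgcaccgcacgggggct
Lrp8: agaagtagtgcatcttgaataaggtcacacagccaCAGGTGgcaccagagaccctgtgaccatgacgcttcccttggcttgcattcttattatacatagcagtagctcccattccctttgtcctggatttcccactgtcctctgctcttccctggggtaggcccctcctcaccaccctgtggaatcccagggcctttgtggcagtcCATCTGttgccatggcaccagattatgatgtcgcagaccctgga
CATCTG, the core of the sequence that the Rp58 protein is known to bind, was searched on both strands. It occurred in 2 of the 11 windows, both belonging to Lrp8. Of 32851 promoter windows of 250 bases, 14.4% held CATCTG, 3.7% held the longer ACATCTG, and 66.2% held CANNTG, of which CATCTG is one case. The Dab1 stretch held no CANNTG, but at 68 bases it cannot be set beside the shares for windows of 250 bases.

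The libraries held between 34645505 and 75892649 estimated counts. They fell into 2 types that the labels do not name. In control 1, mutant 1 and mutant 2 the effective length of a transcript was its length minus 1 constant (fixed-length libraries). In control 2, control 3 and mutant 3 the difference was smaller and lay between 133.67 and 139.2 bases (estimated-length libraries). Library type was a term in the comparison of genotypes, and 11930 of 16985 genes (70.2%) differed between the types. Zbtb18 was at 1902, 1587 and 1697 CPM in controls 1 to 3 and at 46.7, 45.7 and 538 CPM in mutants 1 to 3, where CPM are counts scaled to the normalized library size. The library labelled mutant 3 thus kept more Zbtb18 RNA than the other mutants, and results that rest on it are given without it as well. Zbtb18 fell at a log2 fold change of -3.48 ± 0.81 (SE, adjusted p = 0.0337). It was lower in the mutant within each library type, at -5.36 in the fixed-length and -1.61 in the estimated-length libraries. The value of -3.48 thus lies between 2 unlike effects. The fall was not called without control 3, mutant 1 or mutant 2 (largest adjusted p 0.119), nor without the term for library type (adjusted p = 0.400).

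With library type as a term, 2 of the 9 genes were called at a Benjamini-Hochberg adjusted p under 0.05 in edgeR's quasi-likelihood test, beside 14.9% of all genes tested. Dab1 fell in the mutant and Calb2 rose. Reln and the receptor genes Vldlr and Lrp8 were not called, nor were Trp73, Lhx1, Lhx5 and Ndnf. Without the term, 1 of the 9 was called (Calb2), beside 2.36% of all genes. The median log2 fold change of the 9 genes was 0.25 with the term, and that of all genes tested was -0.00. Without the term these medians were -0.17 and -0.05, so the sign for the 9 genes depends on the fit.

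**Figure D1:**
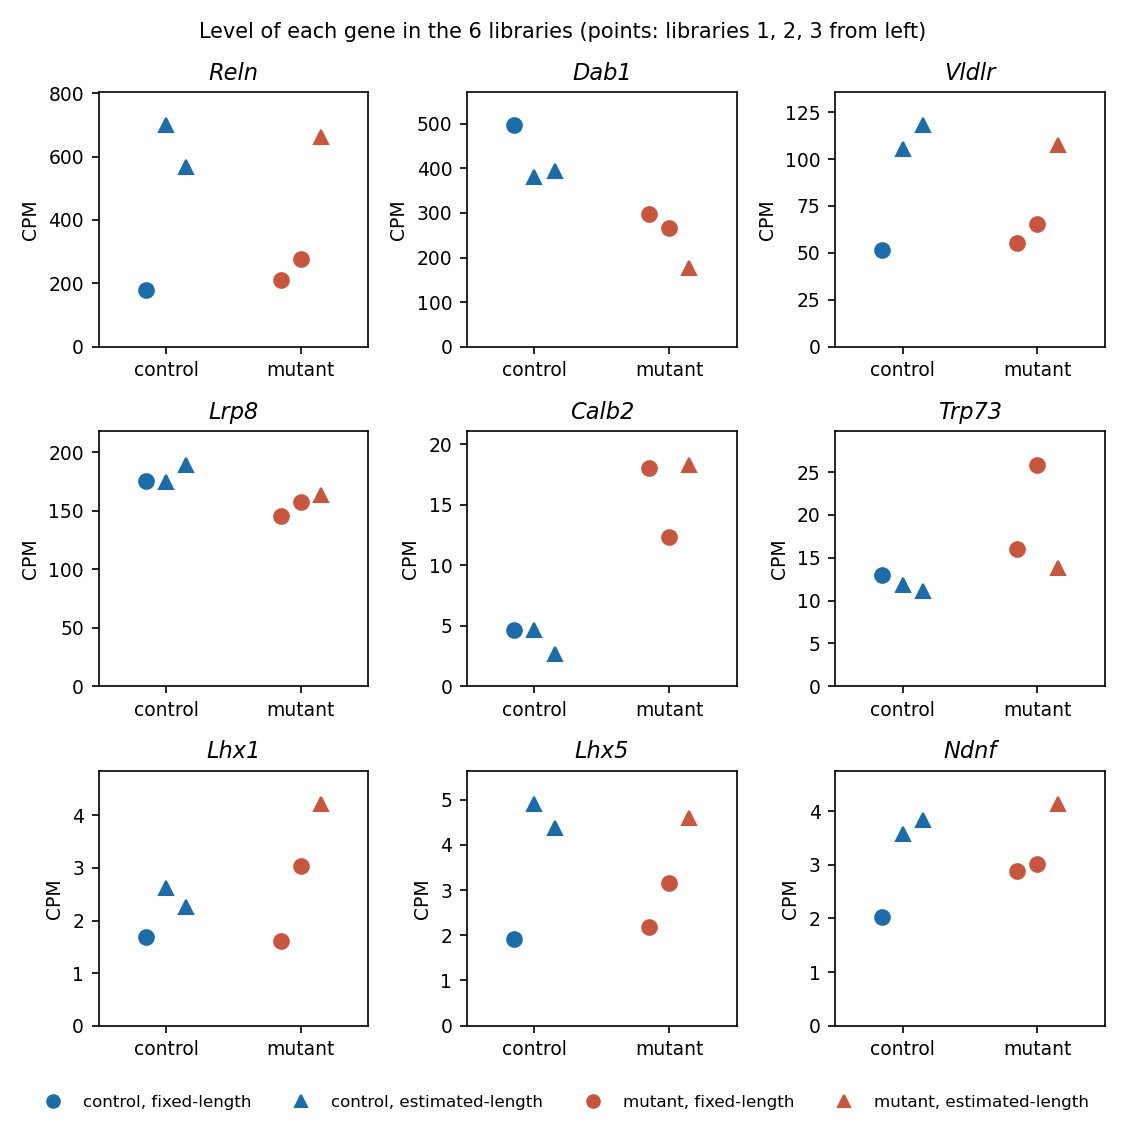
Level of each of the 9 genes in CPM (vertical axis, from 0) in the 3 control and 3 mutant libraries, 1 point per library in the order 1, 2, 3. Circles are fixed-length and triangles estimated-length libraries. The mutant points of Dab1 (176 to 297 CPM) lie below all control points, those of Calb2 (12.3 to 18.3 CPM) lie above all control points, and the points of Reln separate by symbol rather than by genotype.

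Reln, which encodes the ligand, was at 178, 699 and 567 CPM in controls 1 to 3 and at 209, 276 and 662 CPM in mutants 1 to 3. The genotypes overlapped across almost their whole range, and the 3 high values were the 3 estimated-length libraries. Between library types, Reln was 3.11-fold higher in the estimated-length libraries (edgeR, adjusted p = 0.000219). Between genotypes, its log2 fold change was 0.25 ± 0.16 (SE), with a 95% interval from -0.14 to 0.64 and an adjusted p of 0.357. A change in Reln of more than 1.56-fold upward lies outside that interval. The fixed-length type holds 1 control library (control 1) and the estimated-length type 1 mutant library (mutant 3), so values within a type have 1 unreplicated genotype and assume that it varies like the rest. Within the fixed-length libraries the log2 fold change was 0.44 ± 0.22 and within the estimated-length libraries 0.07 ± 0.22. Without the term for library type the value was -0.33 (adjusted p = 0.996), so no direction can be given for Reln.

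Vldlr, which encodes the receptor that transmits the stop signal of Reelin near the marginal zone, showed the same split by library type. It was at 51.4, 106 and 118 CPM in controls 1 to 3 and at 55.3, 65.2 and 107 CPM in mutants 1 to 3. The low values were again the 3 fixed-length libraries, and Vldlr was 1.97-fold higher in the estimated-length type. Between genotypes the log2 fold change was 0.08 ± 0.11 (SE), with a 95% interval from -0.19 to 0.35 and an adjusted p of 0.676. It was -0.27 without the term and -0.04 without control 1.

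Lrp8, which encodes the second Reelin receptor, varied least of the 4 pathway genes. It was at 175, 174 and 189 CPM in controls 1 to 3 and at 146, 158 and 163 CPM in mutants 1 to 3. Every mutant library was below every control library, a separation that 6.64% of all genes tested showed in that direction. The log2 fold change was -0.18 ± 0.08 (SE), with a 95% interval from -0.38 to 0.02, and was not called (adjusted p = 0.206). Library type moved Lrp8 by only 1.06-fold (adjusted p = 0.412).

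Dab1, the adaptor through which both receptors signal, was at 497, 380 and 395 CPM in controls 1 to 3 and at 297, 265 and 176 CPM in mutants 1 to 3. The highest mutant library was below the lowest control library. With library type as a term Dab1 was 1.97-fold lower in the mutant, at a log2 fold change of -0.98 ± 0.11 (SE, 95% interval from -1.24 to -0.72, edgeR adjusted p = 0.00171). Within the fixed-length libraries it was -0.82 ± 0.13 (adjusted p = 0.0174) and within the estimated-length libraries -1.14 ± 0.14 (adjusted p = 0.00774). Each of these p-values sets a single library of 1 genotype against 2 of the other, with the spread taken from both types. In these comparisons within a type 9.46% and 7.92% of all genes were called. Dab1 was called in all 13 alternatives that kept the term, with adjusted p up to 0.0221. Leaving out mutant 3 with the term kept gives no further check, since only the fixed-length libraries then compare genotypes (log2 fold change -0.82, adjusted p = 0.0177). Without the term it was -0.79 and not called (adjusted p = 0.370), and library type itself moved Dab1 by 1.43-fold, with lower values in the estimated-length type.

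Among the Cajal-Retzius markers, Calb2 encodes calretinin, a cytoplasmic calcium-binding protein that is also made by a class of interneurons. It was at 4.67, 4.66 and 2.68 CPM in controls 1 to 3 and at 18.0, 12.3 and 18.3 CPM in mutants 1 to 3. These levels rest on 113 to 313 estimated counts per control library and 656.7 to 935.5 per mutant library. All 3 mutant libraries were well above all 3 controls, and the 2 library types did not separate. Calb2 was 4.01-fold higher in the mutant, at a log2 fold change of 2.002 ± 0.28 (SE, 95% interval from 1.32 to 2.68, edgeR adjusted p = 0.00488). Without the term the value was 2.01 (adjusted p = 0.0392). Within the fixed-length libraries it was 1.69 ± 0.42 and missed the threshold (adjusted p = 0.0650), and within the estimated-length libraries it was 2.30 ± 0.37 (adjusted p = 0.0180). Without mutant 3, which again leaves the fixed-length comparison, it was 1.69 and was not called (adjusted p = 0.0734). With any one library left out and no term, the adjusted p of Calb2 lay between 0.0829 and 0.190.

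Trp73, which encodes the p53 relative p73 and is needed for Cajal-Retzius cells to persist, was at 13.0, 11.8 and 11.2 CPM in controls 1 to 3 and at 16.0, 25.9 and 13.8 CPM in mutants 1 to 3. The lowest mutant library was just above the highest control, and 8.8% of all genes tested separated in that direction. The log2 fold change was 0.47 ± 0.22 (SE), with a 95% interval from -0.04 to 0.99 (adjusted p = 0.202). Trp73 shares exonic sequence with the antisense gene Trp73os. Whether the counting used strand is not given, so reads of the shared sequence may not have been told apart. The same holds for Reln with Gm10475 and for Lhx5 with Gm27199.

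Lhx1, which encodes a LIM homeodomain factor of early neurons, was at 1.69, 2.62 and 2.25 CPM in controls 1 to 3 and at 1.60, 3.03 and 4.21 CPM in mutants 1 to 3. Mutant 1 held the lowest value of all libraries and mutants 2 and 3 the highest, so the genotypes overlapped. The log2 fold change was 0.62 ± 0.29 (SE), with a 95% interval from -0.08 to 1.32 (adjusted p = 0.213). Its counts, from 53 to 208 per library, left an interval that includes both no change and a 2.5-fold rise.

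Lhx5, a close relative of Lhx1 that acts in the formation of Cajal-Retzius cells, was at 1.91, 4.90 and 4.38 CPM in controls 1 to 3 and at 2.18, 3.16 and 4.60 CPM in mutants 1 to 3. The values overlapped between genotypes and were 2.01-fold higher in the estimated-length libraries. Between genotypes the log2 fold change was 0.22 ± 0.24 (SE, adjusted p = 0.607), and -0.17 without the term.

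Ndnf, which encodes a secreted neurotrophic factor found in marginal zone neurons, was at 2.03, 3.57 and 3.84 CPM in controls 1 to 3 and at 2.88, 3.01 and 4.13 CPM in mutants 1 to 3. The genotypes overlapped, and the level was 1.58-fold higher in the estimated-length libraries. The log2 fold change between genotypes was 0.33 ± 0.20 (SE, adjusted p = 0.319). With effective lengths as an offset it was -0.05.

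The genotype effect did not pass the test of a difference between library types for any of the 9 genes, and none had an unadjusted p under 0.05 in that edgeR test, in which 26 of 16985 genes (0.153%) were called. Library type itself was called for 5 of the 9 genes, which is no more than the 70.2% of all genes tested. Reln, Vldlr, Lhx5 and Ndnf were higher in the estimated-length libraries and Dab1 was lower.

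**Figure D2:**
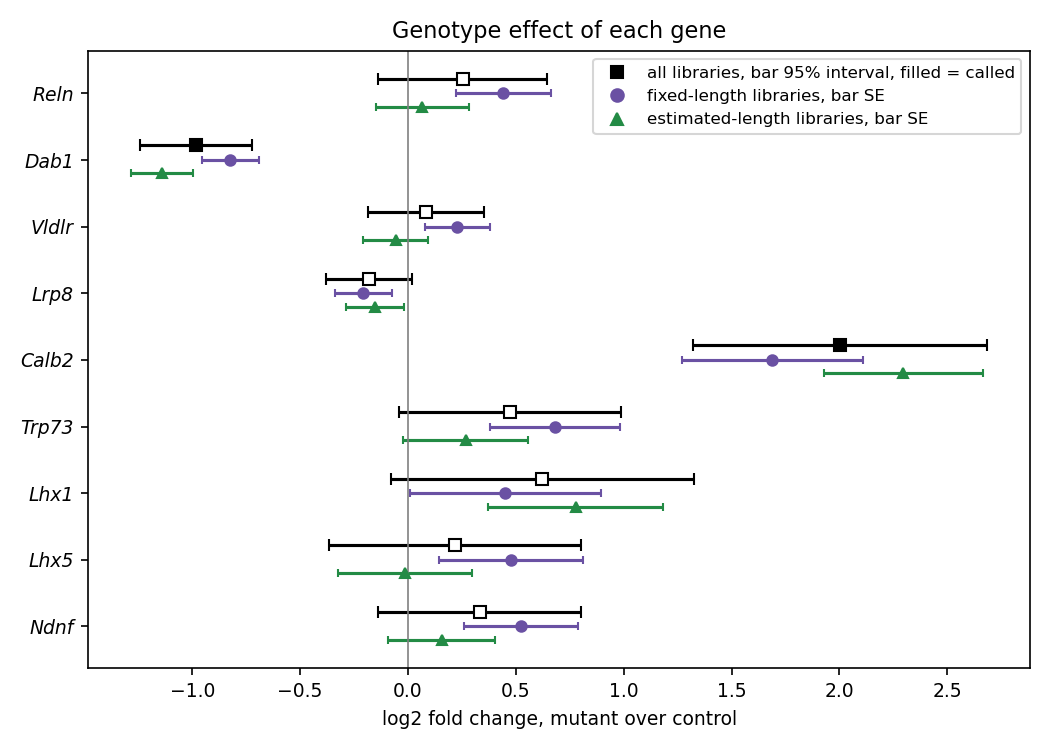
Log2 fold change of each gene, mutant over control (horizontal axis). Squares are the comparison over all 6 libraries with library type as a term and a 95% interval, filled where called; circles and triangles are the values within the fixed-length and estimated-length libraries with SE bars. Only the intervals of Dab1 (-1.24 to -0.72) and Calb2 (1.32 to 2.68) exclude 0.

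On the TPM scale, which corrects for transcript length, Reln, Dab1 and Lrp8 were the 3 highest of the 9 genes in every library, and Lhx1, Lhx5 and Ndnf the 3 lowest. TPM is compared here between genes of 1 library and not between library types. Dab1 was the highest of the 9 in every control library (136.6, 35.2 and 30.8 TPM in controls 1 to 3), with Reln the next (74.9, 22.9 and 16.2 TPM). In mutants 1 to 3 Dab1 was at 88.9, 90.1 and 15.7 TPM and Reln at 87.3, 125 and 20.2 TPM, so Reln was above Dab1 in mutants 2 and 3 and just below it in mutant 1. The ratio of Reln to Dab1 TPM was 0.548, 0.652 and 0.526 in the controls and 0.982, 1.38 and 1.29 in the mutants. These ratios of the summed TPM did not overlap between genotypes. The ratio was picked with both genes' values known and was not tested. In the fixed-length libraries the Reln sum rested largely on Reln-203 and Reln-205, short transcripts not annotated as protein-coding. In mutants 1 and 2 Reln-205 was at 48.9 and 64.3 TPM and the full-length Reln-207 at 17.1 and 25.9 TPM. Dab1-203 was at 77.4 and 79.7 TPM there. Reln-207 was above Dab1-203 only in mutant 3 (13.5 against 9.35 TPM), so the order of the sums in mutant 2 rests on the short transcripts. For Reln-207 and Dab1-203 alone, the ratios overlapped between genotypes across the library types. Control 2 (17.1 against 23.1 TPM) had a higher ratio than mutant 1 (17.1 against 77.4 TPM). Within each library type that ratio was still higher in the mutants. Lrp8 was the third in all 6 libraries, at 41.6, 15.9 and 15.1 TPM in controls 1 to 3 and 40.7, 47.1 and 13.4 TPM in mutants 1 to 3. Vldlr was lower than Lrp8 in every library, with a ratio of Vldlr to Lrp8 between 0.276 and 0.581.

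Of the Cajal-Retzius markers other than Reln, Calb2 was at 5.06, 1.24 and 0.617 TPM in controls 1 to 3 and at 20.6, 16.1 and 4.35 TPM in mutants 1 to 3. In mutant 1 it passed Vldlr, which was at 12.3 TPM there. Trp73 was at 3.69, 0.890 and 0.858 TPM in the controls and at 4.76, 8.85 and 0.909 TPM in the mutants, so Calb2 and Trp73 were close to each other in the controls and changed places between control 1 and control 3. Lhx5 lay between 0.480 and 1.88 TPM, Ndnf between 0.286 and 1.25 TPM, and Lhx1 between 0.230 and 1.07 TPM. The order of these last 3 genes changed from library to library, and they cannot be ranked beyond that spread.

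**Figure D3:**
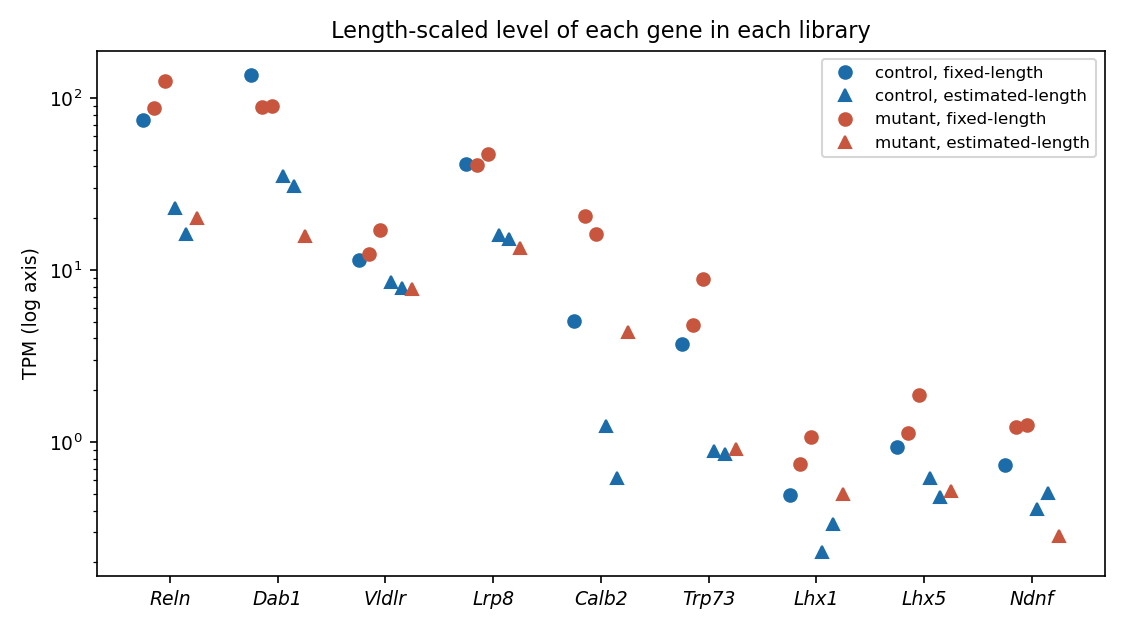
Length-scaled level of each gene in TPM (vertical axis, logarithmic) in each library, controls in blue and mutants in red, circles for fixed-length and triangles for estimated-length libraries. Reln, Dab1 and Lrp8 lie at 13.4 TPM or more in all 6 libraries, and Lhx1, Lhx5 and Ndnf at 1.88 TPM or less.

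The 9 genes were listed with 54 transcripts, of which 39 were tested. No transcript was called in edgeR's quasi-likelihood test, beside 1.4% of all 48353 transcripts tested. Dab1-203 carried between 88.7% and 98.1% of the Dab1 counts in each library and had a log2 fold change of -0.96 ± 0.13 (SE, adjusted p = 0.0522). Calb2-201 was the only transcript of its gene, with a log2 fold change of 2.05 ± 0.33 and an adjusted p of 0.0726 over transcripts.

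The division of counts among transcripts followed library type. Reln-207, shown above with its 6 extra bases, held 67.0%, 69.2% and 69.4% of Reln counts in the fixed-length libraries (control 1, mutant 1 and mutant 2) and 82.5%, 82.9% and 76.7% in the estimated-length libraries (control 2, control 3 and mutant 3). Reln-201 held 0.706% to 0.854% in the fixed-length and 14.6% to 20.2% in the estimated-length libraries. Reln-203 and Reln-205, short transcripts from the 3' end of the gene, together made up most of the rest of the fixed-length counts. Reln-203 held 18.8% to 20.1% there against 0.203% to 0.438% in the estimated-length libraries, and Reln-205 held 9.66% to 12.1% against 0.0659% to 0.131%. The shares of Reln transcripts in the 2 genotypes were thus alike within each type to a few percentage points, and differed most between mutant 3 and controls 2 and 3, where Reln-207 held less and Reln-201 more in mutant 3.

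Trp73 showed a comparable split. Trp73-205, from the internal start, held 97.0%, 89.9% and 91.1% of Trp73 counts in control 1, mutant 1 and mutant 2, and 55.9%, 65.7% and 54.5% in control 2, control 3 and mutant 3. Trp73-204, from the first start, held 2.97%, 10.1% and 8.87% in the former and 42.3%, 31.6% and 44.7% in the latter. Within each type the share of Trp73-204 was higher in the mutant libraries than in the controls, with a log2 fold change of the transcript of 1.38 ± 0.55 (SE) that was not called (adjusted p = 0.444). Lrp8-202, which starts inside the gene at 38.5% of its span, held 86.0% to 87.3% of Lrp8 counts in the fixed-length and 61.2% to 64.1% in the estimated-length libraries.

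**Figure D4:**
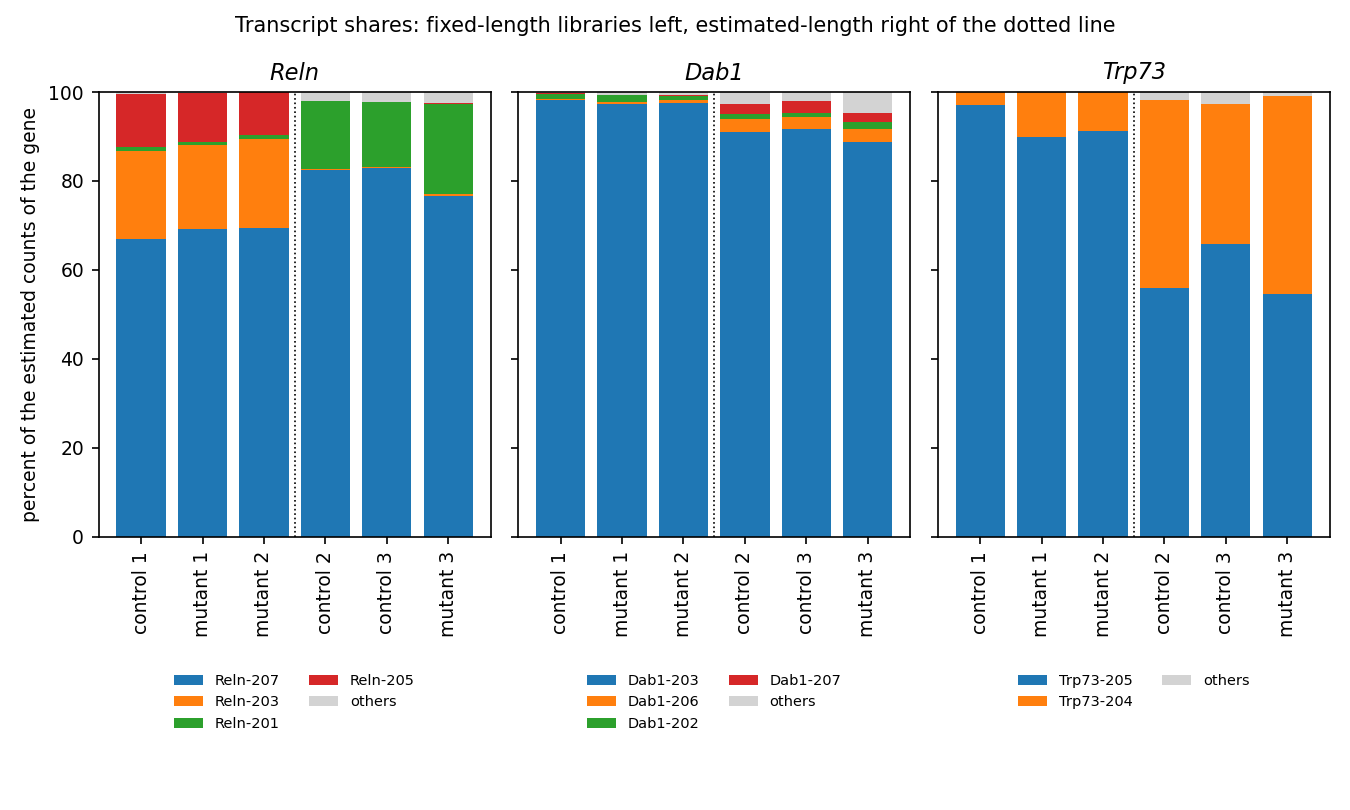
Share of the estimated counts of Reln, Dab1 and Trp73 held by each transcript (vertical axis, percent) in each library, fixed-length libraries left and estimated-length libraries right of the dotted line. Reln-203 holds at least 18.8% left of the line and at most 0.438% right of it, and the share of Trp73-204 is at most 10.1% left of it and at least 31.6% right of it.

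The other genes of the Reelin pathway, 66 tested of 67 listed, were counted by their roles. Of these, 7 rose and 8 fell with library type as a term (10.6% and 12.1%, beside 7.92% and 7.01% of all genes tested), and their median log2 fold change was -0.03. Without the term 1 rose (Adamts5) and 1 fell (Nrp1), beside 2.36% of all genes called in either direction. Most of these genes were not called, and whether their shares differ from those of all genes was not tested. These lists too were written with earlier results of these data known.

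Of 5 proteases that cut Reelin, Adamts5 rose and Adamts3, the main protease for the N-terminal site, fell. Adamts5 was at 5.34, 7.34 and 8.60 CPM in controls 1 to 3 and at 24.9, 25.7 and 36.8 CPM in mutants 1 to 3, with no overlap and a log2 fold change of 2.22 ± 0.11 (SE, edgeR adjusted p = 7.01e-05, and 0.0237 without the term). Adamts3 was at 97.7, 259 and 259 CPM in the controls and at 53.0, 57.6 and 106 CPM in the mutants, a log2 fold change of -1.06 ± 0.12 (adjusted p = 0.00207, and 0.307 without the term). Mutant 3 was above control 1 for Adamts3, and the mutants were lower within each library type.

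Of 13 other ligands, coreceptors and chaperones of the receptors, 2 rose and 2 fell. Nrp1, a semaphorin receptor that also associates with Vldlr at the membrane, was at 218, 151 and 205 CPM in controls 1 to 3 and at 35.2, 30.6 and 53.1 CPM in mutants 1 to 3. That is a 4.71-fold lower level without overlap (adjusted p = 0.00138, and 0.0202 without the term). Itga3, the integrin chain reported to bind Reelin, rose from 4.05 to 6.61 CPM in the controls to 11.7 to 17.7 CPM in the mutants (log2 fold change 1.26 ± 0.19, adjusted p = 0.00623), and missed the threshold without mutant 3 (adjusted p = 0.0610) and without the term (adjusted p = 0.0838). Thbs1, which encodes a matrix protein that can bind both receptors, fell at a log2 fold change of -2.03 ± 0.41 (adjusted p = 0.0210), and was not called without control 2, without control 3 or without the term (adjusted p up to 0.114). Lrp1, a clearance receptor of the same family, rose at 0.94 ± 0.24 (adjusted p = 0.0432) and lost its call without any one of control 1, control 2, control 3 and mutant 1, and without the term.

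Receptor turnover held 4 tested genes of 5. Mylip encodes the ubiquitin ligase that sends Vldlr and Lrp8 proteins to degradation. It was at 0.795, 1.71 and 1.54 CPM in controls 1 to 3 and at 3.51, 3.50 and 5.26 CPM in mutants 1 to 3, so that every mutant library was higher. Its log2 fold change was 1.85 ± 0.21 (SE, adjusted p = 0.00200, and 0.187 without the term).

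Of 13 kinases and adaptors that act on or through Dab1, 1 rose and 1 fell, and the Src family genes Fyn, Src and Yes1 were not called. Pik3r1, the regulatory subunit of PI3 kinase that phosphorylated Dab1 binds, was at 56.3, 87.1 and 83.1 CPM in controls 1 to 3 and at 124, 130 and 155 CPM in mutants 1 to 3, 2.02-fold higher without overlap (adjusted p = 0.000913, and 0.202 without the term). Pik3cb, a catalytic subunit, fell at -0.56 ± 0.13 (adjusted p = 0.0301) and was not called without any one of control 2, control 3, mutant 1 and mutant 3, nor without the term. Of 8 genes of Dab1 turnover, Socs4 rose (0.48 ± 0.10, adjusted p = 0.0260) and Rnf7, the RING subunit of the Cul5 ligase, fell (-0.40 ± 0.10, adjusted p = 0.0450). Socs4 lost its call without 5 of the 6 libraries and Rnf7 without 4, each left out singly, and neither was called without the term.

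Of 23 downstream effectors, 1 rose and 2 fell. Notch1, a receptor whose active fragment Reelin signalling is reported to stabilise, was at 0.0318, 0.566 and 0.403 CPM in controls 1 to 3 and at 2.91, 0.505 and 10.2 CPM in mutants 1 to 3. Mutant 2 was below control 2, and the log2 fold change of 4.34 ± 0.71 (adjusted p = 0.00875) was not called without mutant 3 (adjusted p = 0.114) or without the term (adjusted p = 0.424). Cdk5, a kinase that acts alongside Reelin signalling, fell at -0.37 ± 0.07 (adjusted p = 0.0163). Dcx, a microtubule-binding protein of migrating neurons, fell at -0.48 ± 0.11 (adjusted p = 0.0321). Cdk5 and Dcx each lost the call without any one of control 1, control 2, control 3 and mutant 3, and without the term.

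**Figure D5:**
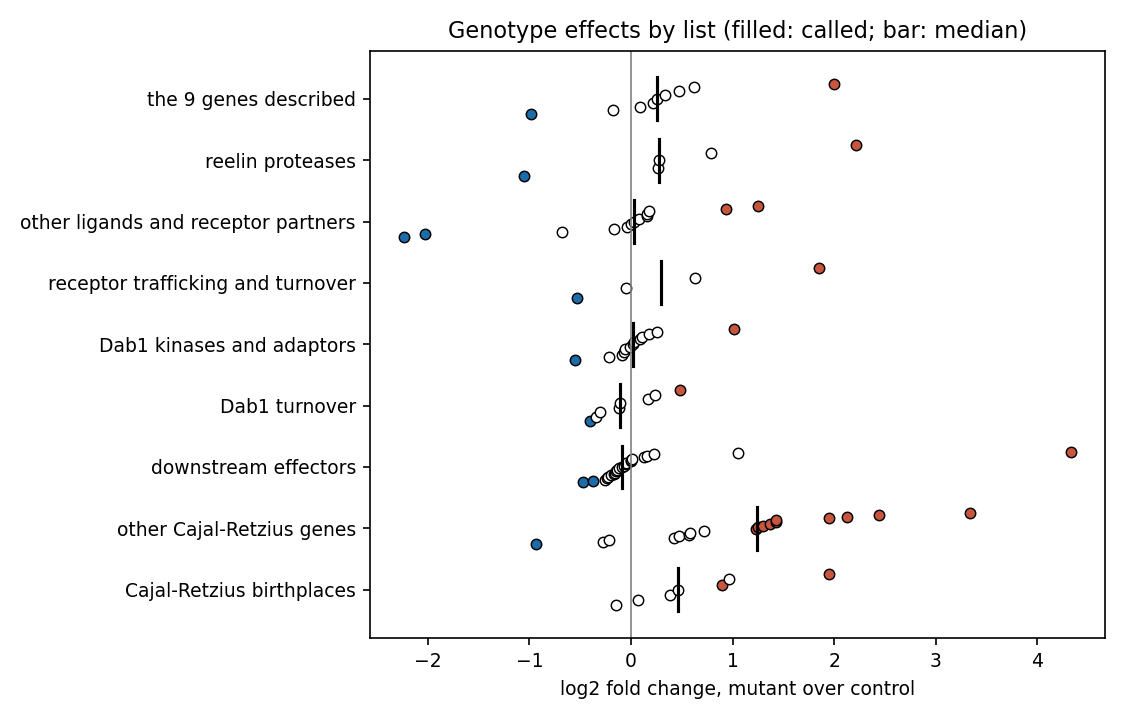
Log2 fold change, mutant over control (horizontal axis), of each tested gene in the 9 genes described and in the pathway and Cajal-Retzius lists, 1 point per gene, filled where called, with a bar at the median of each list. The Reelin pathway lists scatter to both sides of 0, and the other Cajal-Retzius genes have a median of 1.24.

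Other genes of Cajal-Retzius cells were counted from a list of 19, of which 18 were tested. The list was written with earlier results of these data known, so its counts are a description and no independent test. Of these, 10 rose and 1 fell with library type as a term (beside 7.92% and 7.01% of all genes tested), and the median log2 fold change was 1.24 (beside -0.00 for all genes tested). The count of calls was 8 without mutant 3. Without the term 2 rose (Ebf1 and Nhlh2) and none fell, beside 2.36% of all genes called in either direction, at a median of 1.11. Many of the list's genes are made by other young neurons or by progenitors too, so the list does not single out 1 cell type. The Calb2 rise above was within the range of the called genes of this list, while Reln, Trp73, Lhx1, Lhx5 and Ndnf were not called.

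The rise was clearest for Ebf1, a transcription factor of early-born neurons. It was at 1.65, 1.89 and 2.11 CPM in controls 1 to 3 and at 19.3, 19.6 and 18.4 CPM in mutants 1 to 3. The log2 fold change was 3.34 ± 0.16 (SE, edgeR adjusted p = 6.02e-05, and 0.00302 without the term), and the values were alike in both library types. Dmrta2, a regulator of the medial cortex and cortical hem, was at 1.62, 5.67 and 6.23 CPM in the controls and at 10.8, 8.42 and 31.0 CPM in the mutants (2.45 ± 0.16, adjusted p = 0.000219, and 0.444 without the term). Nhlh2, a neuronal helix-loop-helix factor, was at 31.3, 22.9 and 20.8 CPM in the controls and at 74.1, 76.4 and 65.7 CPM in the mutants, 2.69-fold higher (adjusted p = 0.000260, and 0.0255 without the term). Nr2f2, a nuclear receptor found in several neuron types, was at 21.8, 8.99 and 9.88 CPM in the controls and at 49.5, 45.1 and 26.5 CPM in the mutants (adjusted p = 0.000645, and 0.216 without the term). The mutant values of Ebf1, Dmrta2, Nhlh2 and Nr2f2 were all above their highest control value, and with the term these 4 genes were called whichever 1 library was left out. They were named for the smallest p of the list, so neither trait is independent of that choice. In the list 7 genes separated upward and 2 downward, beside 8.8% and 6.64% of all genes tested.

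The gene of that list that fell was Tbr1, chosen for naming after its values were seen, a T-box factor that deep-layer cortical neurons share with Cajal-Retzius cells and that is known to raise Reln transcription. It was at 577, 700 and 679 CPM in controls 1 to 3 and at 351, 370 and 303 CPM in mutants 1 to 3, without overlap (log2 fold change -0.93 ± 0.13, adjusted p = 0.00464, and 0.117 without the term). Of 12 listed genes of the places where Cajal-Retzius cells are born, 7 were tested and 2 rose, beside 7.92% of all genes tested. Bmp7, a secreted signal of the cortical hem and meninges, was at 1.75, 2.63 and 2.44 CPM in the controls and at 7.84, 8.64 and 8.48 CPM in the mutants (1.95 ± 0.19, adjusted p = 0.00108, and 0.0275 without the term). Lmx1a, a factor of the hem, rose at 0.90 ± 0.23 (adjusted p = 0.0431), a call lost without 5 of the 6 libraries left out singly and without the term.

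Markers of other cells moved beside these genes, in lists written with earlier results of these data known. Of all genes tested, 7.92% rose and 7.01% fell with the term for library type, and 2.36% were called in either direction without it. The glutamatergic neuron list, led by Tubb3, summed to 7172 to 9767 CPM in the controls and 5306 to 7754 CPM in the mutants, with 1 of 10 markers higher (Slc17a6) and 6 lower with the term, and none higher and 1 lower without it. All 10 markers were detected in all 6 libraries. Intermediate progenitor markers, led by Insm1, summed to 196 to 310 CPM in the controls and 459 to 703 CPM in the mutants, and 5 of 6 rose with the term (Eomes, Neurog2, Btg2, Gadd45g and Mfap4) but only Neurog2 without it. Radial glia markers, led by Vim, summed to 114 to 242 CPM and 109 to 217 CPM, with 3 of 10 higher (Sox2, Pax6 and Hes1) and 3 lower (Vim, Fabp7 and Slc1a3) with the term. Without it Sox2, Pax6 and Hes1 were still called higher, and only Slc1a3 was called lower. GABAergic markers, led by Gad2, stayed near 0, with sums of 0.858 to 3.50 CPM in the controls and 2.84 to 4.17 CPM in the mutants, and 2 of 7 tested markers of 10 listed rose with the term (Slc32a1 and Dlx5) and none without it. The called markers in this paragraph were named after their values were seen. The vascular and meningeal (1.81 to 3.91 CPM), microglial (0.868 to 1.98 CPM) and erythroid lists (5.89 to 16.4 CPM) had no called gene. Only 5 of 10, 2 of 6 and 4 of 6 of their markers were tested, so the others could not be called. Calb2 was above the sum of all 10 GABAergic markers in every mutant library (12.3 to 18.3 CPM). It was also above that sum in control 1 (4.67 against 0.858 CPM) and control 2 (4.66 against 3.50 CPM), but not in control 3 (2.68 against 3.36 CPM). CPM are not corrected for transcript length, and which cells held the Calb2 RNA was not tested. The part of the intermediate progenitor markers in the values of Calb2, Dab1 and the Cajal-Retzius list was not tested. In these bulk libraries fewer cells of a type and less RNA per cell cannot be told apart.

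The protein-coding genes whose levels ran most like Reln across the 6 libraries were Fryl, Dido1, Ttc37, Trmt13 and Pan3, of 14224 compared. Likeness was the root mean square distance between log2(CPM + 1) values centred on each gene's mean, and it was 0.0908 for Fryl and 0.105 for Pan3. Fryl was at 59.0, 208 and 204 CPM in controls 1 to 3 and at 66.0, 92.3 and 233 CPM in mutants 1 to 3. All of these genes were high in the estimated-length and low in the fixed-length libraries, the split that Reln itself showed, and none of them was called between genotypes.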

How the data were processed

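Each deposited table lists 97251 transcripts with length, effective length, estimated count and TPM, per the file headers. FastQC, kallisto and the mm9 build are named, without versions, per the submitters' processing notes. Estimated counts were deposited by the authors unnormalized, and the deposited TPM values are scaled by effective length and total. The deposited length and effective length columns gave the library types. Transcripts were joined to GENCODE vM21 names (84637 matched, 87.0%); unmatched transcripts held 6.85% to 8.58% of counts and were left out. Counts were summed to 34289 genes, rounded, and tested in edgeR 4.0.16 (R 4.3.3) with TMM, filterByExpr, prior count 2 and library type as a term. The common biological coefficient of variation was 18.6% with that term and 70.1% without it. An SE is the log2 fold change divided by the square root of F. Effects within a type came from an interaction fit with a pooled spread. Scripts were tested on simulated data. Alternatives used DESeq2 1.42.0, limma 3.58.1 on log2(TPM + 1), other scalings and filters, and libraries left out. The 9 genes and the gene lists were chosen with earlier results of these data known. Named genes are the 9, Zbtb18, up to 4 called genes per pathway list with the smallest p, the highest marker of each cell type, and the 5 nearest to Reln. Promoter windows are from RefSeq and served for sequence only. Some genes that these rules take are not reported here.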

Additional observations from a re-analysis of the deposited data

How the results depend on the processing

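No paired analysis was possible because the replicate numbers follow deposition order and pair nothing. Across 21 settings, 463 of 592 values stayed the same. For effects this meant the same direction and side of the threshold, and for counts of calls a value within a set ratio. Another 101 were effects that kept direction but lost the call or had no adjusted p. A further 20 were counts that moved beyond that ratio, and 8 effects reversed. Reversed values belonged to genes that were not called. Without the library type term the log2 fold changes were -0.33 for Reln, -0.27 for Vldlr and -0.17 for Lhx5, and in DESeq2 without library type -0.35, -0.30 and -0.20. Ndnf was at -0.052 with effective lengths as an offset, and Vldlr ranged from -0.037 (without control 1) to 0.23 (without mutant 3) with a library left out. Genes called numbered 2537 (53.1% higher), 400 without the term (67.5% higher), 3894 in DESeq2 with it (43.6%), 1024 in DESeq2 without it (60%) and 780 in limma (59.2%). With each library left out they ranged from 1294 without control 1 to 3034 without mutant 2, and 63.8% were higher without mutant 3. Of the 9 genes, 1 was called without the term and 1 in DESeq2 without library type, 1 to 2 with each library left out, and 0 with a library left out and no term, a setting chosen after seeing the data. Calls among the other Cajal-Retzius genes fell from 11 to 2 without the term, 6 in DESeq2 without library type and 7 in limma, counts also added after seeing the data. The cause was not tested. Counts of 53 to 208 for Lhx1 limit what could be seen for that gene.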
